A study of Caenorhabditis elegans with 2 samples.

Results

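The genes daf-19, unc-64 and cam-1 are 3 neuronal genes of Caenorhabditis elegans that lay near regions of FKH-6-GFP signal in chromatin immunoprecipitation with sequencing (ChIP-seq) of late embryos. They are 3 of 19973 nuclear protein-coding genes in the annotation. They were chosen by the deposited regions themselves. The authors made an "optimal" list from the regions of both replicates pooled, with an irreproducible discovery rate cut-off. A region's summit is its base of highest signal. Each of the 3 genes has an optimal region whose summit lies within 2000 bp of the gene's 5' end. That rule held for 825 genes, or 4.13% of those nuclear protein-coding genes, so having such a region is how the 3 genes were selected and is not a finding. The optimal list holds 767 regions, and 3 of them are the regions of these genes.

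The animals were hermaphrodite embryos of the transgenic strain OP78, genotype unc-119(ed3) III; wgIs78, which carries FKH-6 fused at its C terminus to a GFP-FLAG tag. They were collected 5.5 hours after synchronization by egg bleaching, with no further treatment named, and chromatin was sheared by sonication and recovered with an antibody against GFP. There was 1 group, with 2 biological replicates. The tagged protein comes from a transgene in 1 strain. Whole embryos were used, so strong signal in a few cells cannot be told apart from weak signal in many, and the lists do not say whether the signal at these genes came from neurons. Control libraries were not analysed here.

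FKH-6 is a forkhead transcription factor known for its role in development of the somatic gonad. DAF-19 is an RFX transcription factor that switches on the genes for building sensory cilia; a short isoform acts in ciliated sensory neurons, and long isoforms act in neurons without cilia. UNC-64 is syntaxin, the plasma membrane SNARE protein with which synaptic vesicles fuse to release transmitter. CAM-1 is a receptor tyrosine kinase of the ROR family that binds Wnt ligands and acts in neuronal migration and axon outgrowth.

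The sequence around each optimal summit is given because it shows what the 3 sites share and where they differ. Each window is 201 bases centred on the summit and is written 5' to 3' on the strand of its gene, from the RefSeq genome WBcel235, which is ce11. The daf-19 window is chrII:10169572-10169772 on the minus strand, the unc-64 window is chrIII:13276011-13276211 on the plus strand, and the cam-1 window is chrII:9308808-9309008 on the minus strand. Capitals mark TCTCTC, the reverse complement of GAGAGA.
daf-19: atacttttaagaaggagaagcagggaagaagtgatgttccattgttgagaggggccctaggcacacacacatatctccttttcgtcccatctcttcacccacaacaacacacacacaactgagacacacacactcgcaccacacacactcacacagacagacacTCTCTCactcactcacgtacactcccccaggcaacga
unc-64: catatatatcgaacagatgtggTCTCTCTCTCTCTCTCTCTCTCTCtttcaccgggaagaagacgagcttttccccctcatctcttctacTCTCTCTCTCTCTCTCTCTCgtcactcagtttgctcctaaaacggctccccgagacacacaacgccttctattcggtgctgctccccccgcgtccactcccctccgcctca
cam-1: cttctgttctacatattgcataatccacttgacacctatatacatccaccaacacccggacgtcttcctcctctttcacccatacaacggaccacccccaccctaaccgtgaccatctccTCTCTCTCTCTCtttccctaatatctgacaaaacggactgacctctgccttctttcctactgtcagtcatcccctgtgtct

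The sites of unc-64 and cam-1 shared uninterrupted CT repeats. The longest alternating run of C and T was 25 bases at unc-64, 14 bases at cam-1 and 7 bases at daf-19, against a median of 5 bases over nuclear optimal regions. A run at least as long was found in 0.536% of optimal and 0.126% of pooled regions for unc-64. For cam-1 the shares were 3.35% of optimal and 0.922% of pooled regions, and for daf-19 they were 23.7% and 10.9%. This measure was chosen after the 3 windows were seen, so these shares only describe them. Read on the gene strand, pyrimidines made up 70.6% of the unc-64 window, 69.2% of the cam-1 window and 52.2% of the daf-19 window. Over nuclear optimal regions the larger of the pyrimidine and purine shares had a median of 56.2%. It was at least as high as at unc-64 in 3.22% of them, as at cam-1 in 5.09% and as at daf-19 in 83.5%. The daf-19 window held 37 CA dinucleotides, against 11 at unc-64 and 17 at cam-1. CA dinucleotides were not counted over other regions, so whether 37 is unusual is unknown. GC content within 50 bp of the summit was 52.5% at each of the 3 sites, against means of 50.3% over optimal and 42.6% over pooled regions. Of optimal regions, 41.7% were at or above that value. The equal values hold for that window only. Over the 201 bases GC content was 49.8% at daf-19, 53.7% at unc-64 and 48.8% at cam-1.

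A search of 5 motifs on both strands gave matches for GAGAGA only. Within 50 bp of the summit GAGAGA was found at unc-64 and cam-1, which is 2 of the 3 sites, and in 21.4% of optimal and 10.8% of pooled regions. Within 100 bp it was found at 3 of 3 sites, against 36.3% of optimal and 18.8% of pooled regions. The match at daf-19 began 64 bases downstream of the summit in the direction of transcription. The forkhead motif GTAAACA, the shorter TAAACA that it contains, GGGCGG and CAGCTG were found at 0 of the 3 sites within 50 bp and within 100 bp. Within 50 bp those motifs were present in 1.07%, 3.62%, 9.38% and 3.22% of optimal regions, in that order. Their shares of pooled regions were 1.03%, 5.23%, 4.09% and 2.84%. Within 100 bp the shares were 2.68%, 10.05%, 16.09% and 6.57% of optimal regions. For pooled regions they were 2.17%, 10.84%, 7.25% and 5.53%. The 2 forkhead sequences were thus rare in both lists, and TAAACA was no more common in optimal than in pooled regions. A missing match says only that these letters are not in these windows.

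Facts of the whole series bear on how the regions are read. The pooled list holds 26164 regions, with 19624 in replicate 1 and 26209 in replicate 2. The deposited signal has no stated scale, so it was used for ranks within a list. The highest deposited −log10 q-value was 1.86 in replicate 1, where 0 regions reached 2, against 1074 regions in replicate 2. The highest value was 2.48 in replicate 2 and 2.19 in the pooled and optimal lists. The optimal value of daf-19 and the replicate 2 value of unc-64, given below, are these highest values. Of the 767 optimal regions, 758 reached 2, so these values hardly separate optimal regions. No read counts are in the lists, so the depth of each library is unknown.

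daf-19 (WBGene00000914) lies on the minus strand of chromosome II at 10157520-10169346. Its optimal region, chrII:10169442-10169901, was intergenic, with the summit at 10169672, −326 bp from the gene's 5' end, upstream. This was the strongest of the 3 regions: its signal of 160.8 ranked 188 of 767 optimal regions, with a deposited −log10 q-value of 2.19. In replicate 1 the signal was 51.8, rank 424, with the summit at −332 bp. In replicate 2 the signal was 110.2, rank 118, with the summit at −323 bp. The region was thus high in both lists, with summits 9 bp apart.

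The daf-19 summit lay between 2 divergent genes. The other is gpd-4, a glyceraldehyde-3-phosphate dehydrogenase gene on the plus strand, whose start was 1596 bp from the summit and 1922 bp from that of daf-19. The daf-19 start was the nearer. On the other side the nearest protein-coding start, that of the neuropeptide-like gene nlp-63, was 13940 bp from the daf-19 start. No other optimal region was close by, the next lying 32853 bp and 229053 bp away on either side.

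unc-64 (WBGene00006798) lies on the plus strand of chromosome III at 13277258-13283887. Its optimal region, chrIII:13275881-13276340, was also intergenic, with the summit at 13276111, −1147 bp from the 5' end. Its signal of 92.3 ranked 696 of 767, near the bottom of the optimal list, with a −log10 q-value of 2.10. In replicate 1 the signal was 34.2, rank 1762, with a −log10 q-value of 0.953. In replicate 2 the signal was 58.8, rank 546, with a −log10 q-value of 2.48. The region was in the top 2.08% of replicate 2 and the top 8.98% of replicate 1, and the summits, at −1148 bp in replicate 2 and −1105 bp in replicate 1, were 43 bp apart.

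A non-coding RNA gene lies between the unc-64 summit and the unc-64 start. This gene, F56A8.10, spans 13276960-13277074 on the plus strand, and its start was 849 bp from the summit and 298 bp from the start of unc-64. It was therefore nearer to the summit than unc-64 itself was. The nearest protein-coding starts on either side of unc-64 were those of cpf-2, upstream and 8375 bp from the unc-64 start, and F56A8.8, downstream and 8463 bp from it. The closest optimal regions were 7103 bp and 84003 bp from the summit.

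cam-1 (WBGene00000289) lies on the minus strand of chromosome II at 9295915-9310304. Unlike the others, its optimal region, chrII:9308678-9309137, lay inside the gene, with the summit at 9308908, 1396 bp downstream of the 5' end. The summit fell in the first intron, of 5402 bp, of the longest-protein transcript C01G6.8a.1. Among nuclear optimal regions 17.96% of summits were in introns and 52.01% were intergenic. The signal of 91.0 ranked 725 of 767, with a −log10 q-value of 2.12.

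The cam-1 region was in the top few percent of both replicates. In replicate 1 the signal was 47.1, rank 555 (2.83%), with a −log10 q-value of 1.77 and the summit at 1393 bp. In replicate 2 the signal was 47.7, rank 1001 (3.82%), with a −log10 q-value of 2.07 and the summit at 1459 bp. The summits were 66 bp apart. The nearest protein-coding starts beyond the gene were those of csa-1, upstream and 9422 bp from the cam-1 start, and C01G6.9, downstream and 14486 bp from it. The closest optimal regions were 248370 bp and 257372 bp from the summit.

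**Figure D1:**
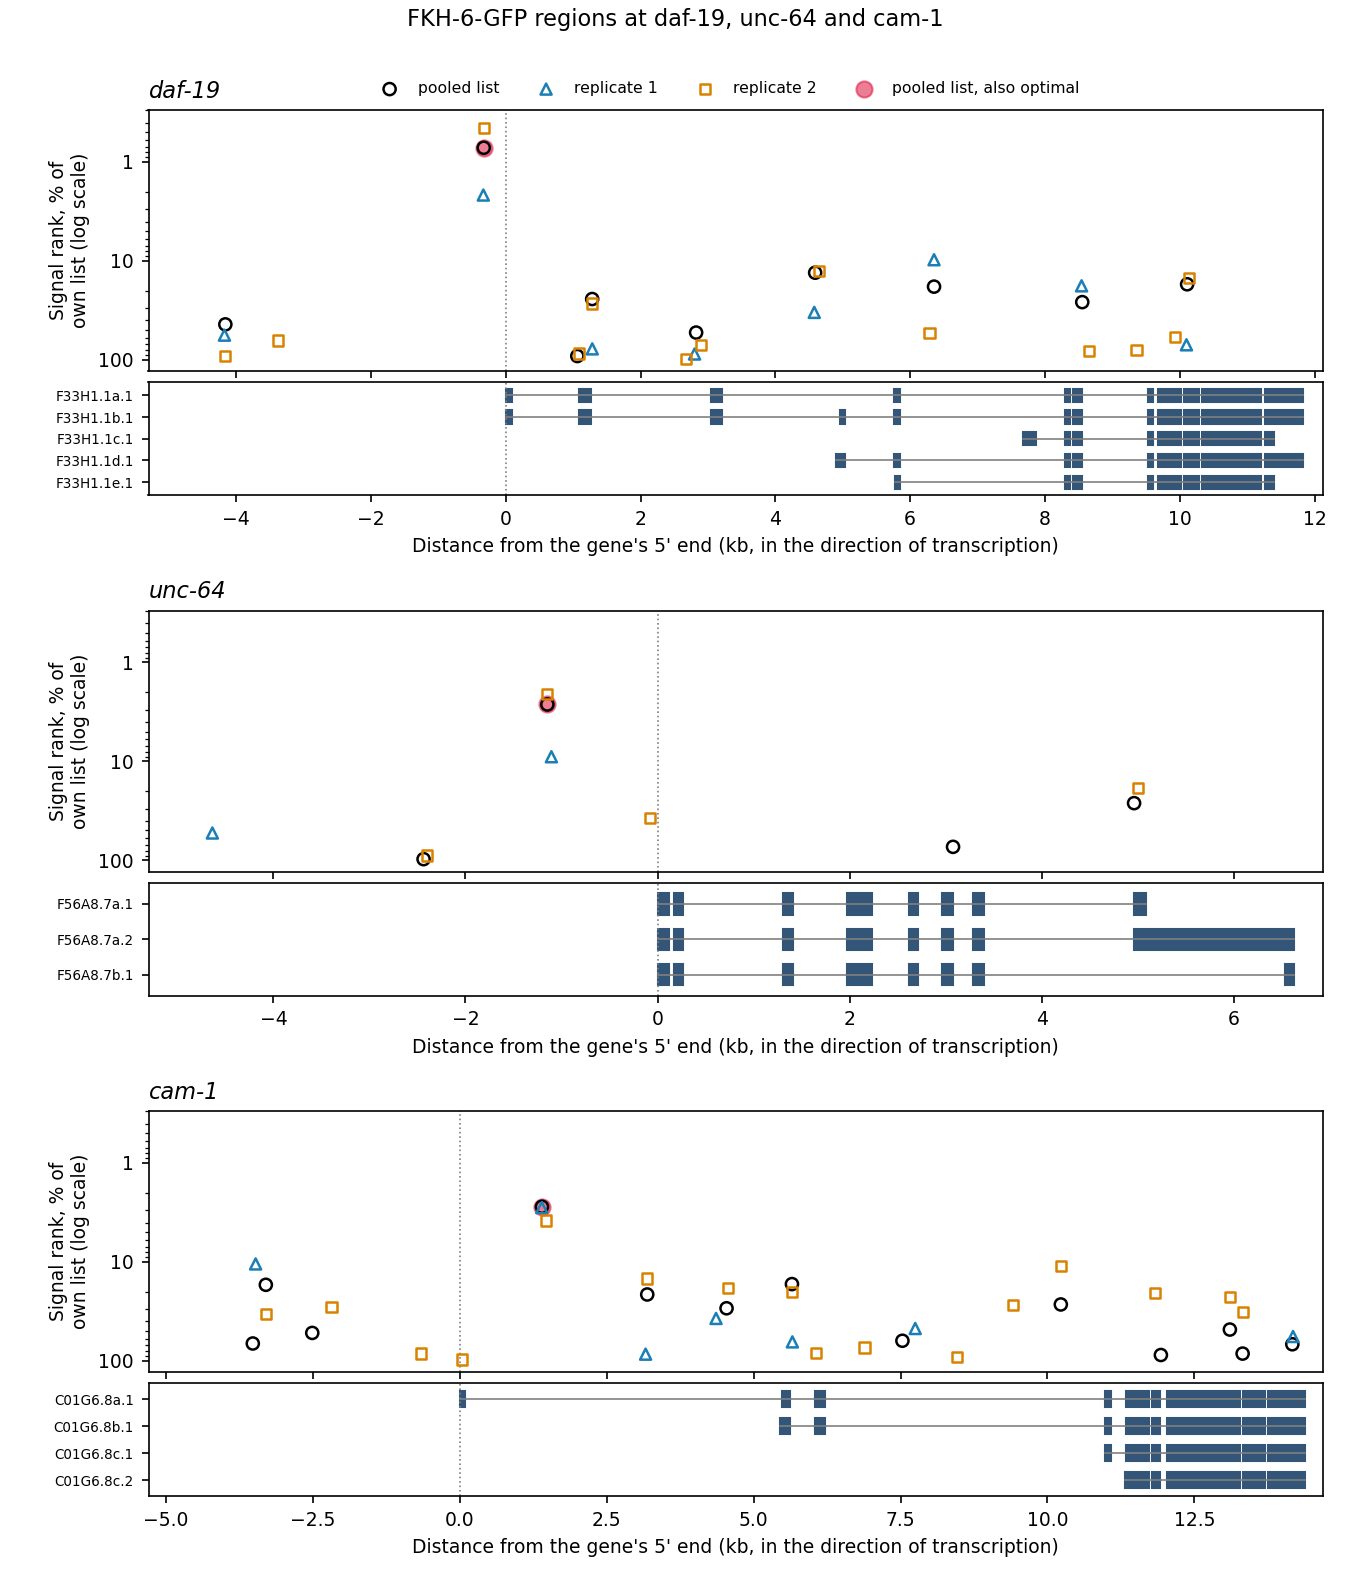
Regions in each list at daf-19, unc-64 and cam-1. The horizontal axis is the distance from the gene's 5' end in kb in the direction of transcription, the vertical axis is the signal rank as a percent of the region's own list on a log scale with the strongest at the top, and bars below are exons of each annotated transcript. The optimal regions sit at −326 bp, −1147 bp and 1396 bp, above the weaker regions of the same gene. In the pooled list this order follows from the optimal list holding the pooled regions of highest signal.

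The 3 regions differed in how well they stood in each replicate. A region was counted among the strongest of a replicate if a region within 100 bp of its summit ranked in the top 767 there, the size of the optimal list. The daf-19 region was the 1 of 3 that met this in both replicates, against 56.7% of nuclear optimal regions. The regions of daf-19 and cam-1 met it in replicate 1, against 73.3% of nuclear optimal regions. Those of daf-19 and unc-64 met it in replicate 2, against 79% of nuclear optimal regions. With 3 regions chosen from the optimal list, these counts only describe them. All 3 were present in the full lists of both replicates, as were 704 of 746 nuclear optimal regions (94.4%).

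The gaps between the replicates' summits were set against those of optimal regions found in both. The median gap was 25 bp. A gap of at least 9 bp, that of daf-19, was seen in 74.4% of regions. At least 43 bp, that of unc-64, was seen in 30.1%, and at least 66 bp, that of cam-1, in 16.6%. The daf-19 summits were thus closer together than most, and those of cam-1 farther apart than most.

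**Figure D2:**
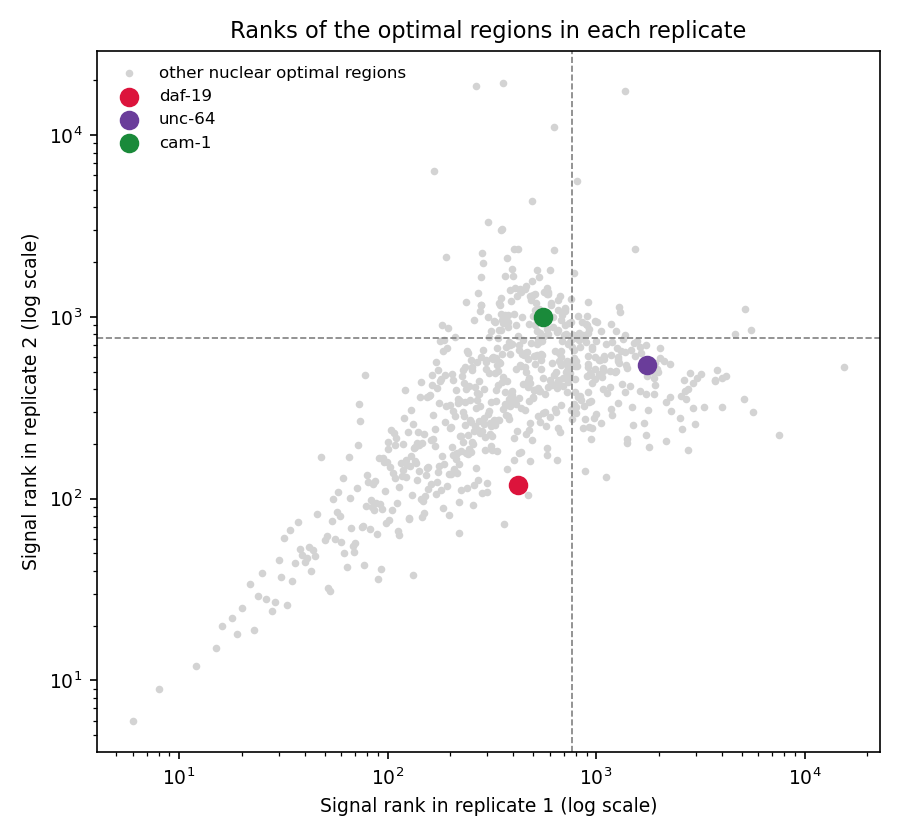
Signal rank of nuclear optimal regions in replicate 1 (horizontal, log scale) and replicate 2 (vertical, log scale), where each point is a region found in both and the dashed lines mark rank 767. The daf-19 region, at ranks 424 and 118, lies inside both lines, cam-1 lies above the horizontal line at rank 1001 in replicate 2, and unc-64 lies right of the vertical line at rank 1762 in replicate 1.

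In ce11 the limit of the optimal list runs just below unc-64 and cam-1. Their signals of 92.3 and 91.0 stand beside the lowest optimal signal on the nuclear chromosomes, 89.1, and the highest pooled signal outside the optimal list, also 89.1. The median nuclear optimal signal was 114.83, above both genes and below daf-19. To more digits, the lowest optimal signal was 89.129 and the highest nuclear pooled signal outside the list was 89.1242. On the nuclear chromosomes the optimal regions are thus the pooled regions of highest signal. Being in the list does not by itself show that a region was strong in each replicate.

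The protein-coding genes with regions of nearest rank were found by a rule on signal alone, taking the next regions above and below that had a gene start within 2000 bp. Beside daf-19 these were W03H9.2, at rank 187, and spd-5, a centrosome scaffold gene, at rank 189. Beside unc-64 these were unc-1, a stomatin-like gene, at rank 694, and col-138, a collagen gene, at rank 697. Beside cam-1 these were unc-76, a FEZ family gene of axon growth, at rank 724, and fbxa-219, an F-box gene, at rank 726. The likeness is in 1 value of 1 pooled list.

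**Figure D3:**
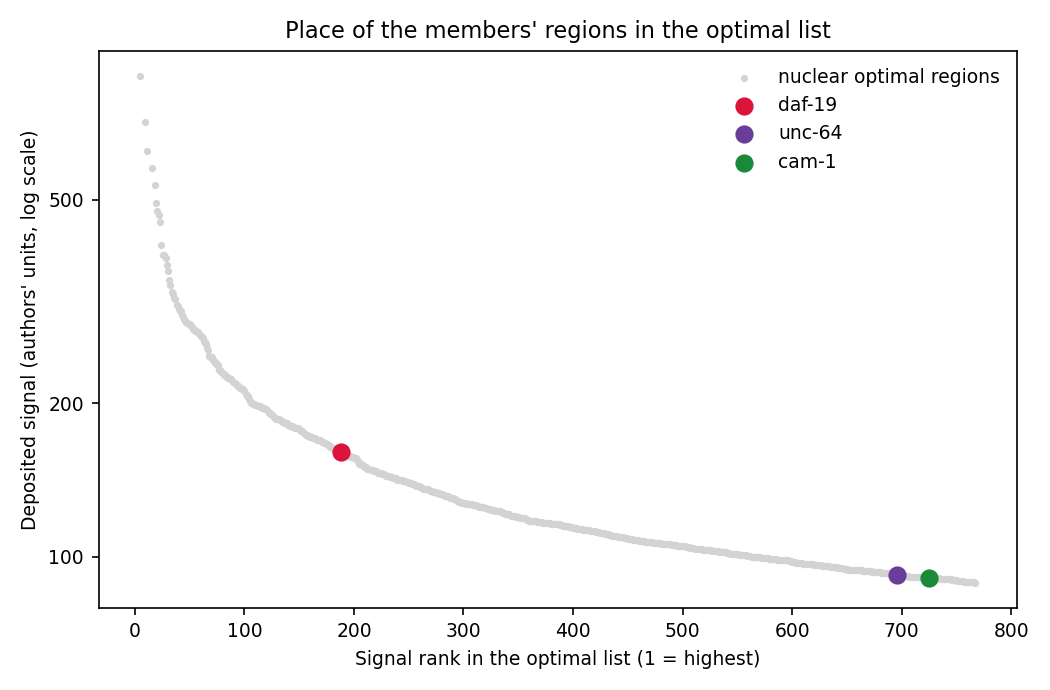
Deposited signal in the authors' units (vertical, log scale) against rank in the optimal list (horizontal), with each nuclear optimal region as a grey point and the 3 genes in colour. daf-19 is at rank 188, and unc-64 and cam-1 are at ranks 696 and 725, near the end of the list.

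Beside its optimal region, each gene held weaker regions of the pooled list inside the gene or within 5000 bp of its start. The pooled list is permissive and includes background. Counting the optimal ones, the pooled list gave 9 regions at daf-19, 4 at unc-64 and 13 at cam-1. Per kb of window this was 0.535 at daf-19, 0.344 at unc-64 and 0.670 at cam-1, against a median over genes of 0.200. As many per kb were found at 9.23% of genes for daf-19, 28.9% for unc-64 and 4.50% for cam-1. Each count includes the region by which the gene was chosen. These shares, and those of the replicates below, are therefore in part set by that choice and only describe the genes.

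These shares differed between the replicates. Replicate 1 gave 8 regions at daf-19, 2 at unc-64 and 7 at cam-1, and as many per kb were found at 7.15% of genes for daf-19, 53.4% for unc-64 and 16.03% for cam-1. Replicate 2 gave 13 regions at daf-19, 4 at unc-64 and 16 at cam-1, with shares of 1.59% for daf-19, 28.8% for unc-64 and 0.756% for cam-1. The density at unc-64 was thus below the median over genes in replicate 1, 0.172 per kb against 0.200. The 23 pooled regions outside the optimal list had signals from 25.4 to 55.5, and 13 were above the list's median of 34.98. Their highest −log10 q-value was 0.705, at daf-19, so that at a value of 2 or more each gene kept 1 pooled region, the optimal one. Of the 23, 18 were downstream of the 5' end. By place, 16 were in introns, 2 in coding exons, 4 intergenic and 1 in a 3' UTR. Shares by place were not taken over all pooled regions, so these counts only describe the regions. Most of each window is downstream of the 5' end. The gene fills 11827 bp of 16.827 kb at daf-19, 6630 bp of 11.63 kb at unc-64 and 14390 bp of 19.39 kb at cam-1. Of the 23 weaker regions, 8 were found in both replicates within 100 bp (34.8%), against 24.3% of nuclear pooled regions outside the optimal list. That was 6 of 8 at daf-19, 0 of 3 at unc-64 and 2 of 12 at cam-1, so the figure for the 3 genes together comes mostly from daf-19.

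daf-19 has 5 annotated transcripts with separate starts, and the optimal region lay next to the outermost pair of starts. F33H1.1a.1 and F33H1.1b.1, which encode 780 and 805 residues, start within 1 bp of each other at the gene's 5' end. F33H1.1d.1, of 661 residues, starts 4894 bp inside the gene. F33H1.1e.1, of 638 residues, starts at 5770 bp, and F33H1.1c.1, of 622 residues, at 7673 bp.

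The weaker daf-19 regions were compared with these internal starts, and 1 of the 8 lay within 500 bp of a transcript start. That region, the strongest of the 8, had its summit −303 bp from the start of F33H1.1d.1, with a pooled signal of 55.5, rank 3447 of 26164. It was at −316 bp in replicate 1, where it ranked 6512, and at −248 bp in replicate 2, where it ranked 3290. A region 585 bp inside F33H1.1e.1 had a pooled signal of 50.3 and rank 4768, ranking 1911 in replicate 1 but 14169 of 26209 in replicate 2. The nearest region to F33H1.1c.1, the shortest protein, was 881 bp inside it, with signal 44.6 and rank 6837. Over protein-coding transcripts in general 31.3% of starts had a pooled summit within 500 bp, and the median distance was 1162 bp. That is a share of starts, and the share of all pooled regions near a start was not taken. At daf-19 the starts of F33H1.1a.1, F33H1.1b.1 and F33H1.1d.1 had a pooled summit that near. For F33H1.1a.1 and F33H1.1b.1 it was the optimal region, at −326 and −327 bp.

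The other daf-19 regions were spread over the gene. A coding exon 10110 bp into the gene held a region of signal 51.1, rank 4513. Introns held regions at 1283 bp, of signal 45.8, at 2825 bp, of signal 34.1, and at 1062 bp, of signal 26.2. Upstream, a region at −4160 bp, of signal 36.9, lay in an intron of wbp-11.

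cam-1 has 4 transcripts with separate starts. C01G6.8a.1 encodes 928 residues and starts at the 5' end. C01G6.8b.1, of 902 residues, starts 5451 bp inside the gene, so the optimal summit lay −4055 bp from it. C01G6.8c.1 and C01G6.8c.2, both of 769 residues, start at 10981 bp and 11326 bp.

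Next in signal after the optimal region of cam-1 was a region 200 bp inside C01G6.8b.1. Its pooled signal was 51.6, rank 4389, and it was found in replicate 1 at 207 bp, rank 12648, and in replicate 2 at 200 bp, rank 5246. The next, of signal 51.4 and rank 4463, was upstream of the gene at −3303 bp. A region at 10227 bp, of signal 44.1 and rank 7053, lay −754 bp from the start of C01G6.8c.1. Replicate 2 ranked it 2877, and replicate 1 had no region within 100 bp. At the cam-1 5' end itself only replicate 2 had regions, at 31 bp with signal 15.07 and at −662 bp with signal 16.3, both deep in its list at ranks 25477 and 22084.

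unc-64 has 3 transcripts that start within 3 bp of each other and encode 291 residues each. Its weaker regions were few. The strongest, 4962 bp into the gene, had signal 44.4 and rank 6921 and was found in replicate 2. A region at 3077 bp, of signal 29.4, was found in neither replicate, and a region at −2436 bp, of signal 25.4, in replicate 2. Replicate 2 alone had a region −77 bp from the 5' end, of signal 23.3 and rank 9822, and 221 bp from the start of F56A8.10. Replicate 1 alone had a region at −4635 bp, of signal 20.5.

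None of the 3 optimal summits lay within 500 bp of an annotated tRNA, snoRNA or ncRNA start, classes that some other optimal regions adjoined. Of nuclear optimal regions, 19.4% were within 500 bp of a tRNA start, 7.64% of a snoRNA start and 30.6% of an ncRNA start. The nearest tRNA start was 132558 bp away at daf-19, 50877 bp at unc-64 and 97021 bp at cam-1. The nearest snoRNA start was 103841 bp away at daf-19, 27302 bp at unc-64 and 47244 bp at cam-1. The nearest ncRNA start was F33H1.9 at 11124 bp for daf-19, F56A8.10 at 849 bp for unc-64 and D2013.11 at 8573 bp for cam-1, against a median of 4635.5 bp for optimal regions. At cam-1 the weaker pooled region of rank 7053 lay 258 bp from the start of D2013.11, which is inside cam-1. At daf-19 the nearest non-coding gene was the piRNA gene 21ur-13428, 6166 bp from the optimal summit and 515 bp from a weaker pooled summit.

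Genes of the same functions were taken from 5 lists of cilia, synaptic, Wnt, neuronal transcription factor and axon genes, of which 158 of the 160 written were matched. The lists were chosen with the results at these genes known. A region within 2000 bp of the 5' end was found for 11 of 158 (6.96%), against 4.13% of all nuclear protein-coding genes. Of the 11, 3 are daf-19, unc-64 and cam-1, which were chosen for having one. Without them 8 of 155 list genes (5.16%; interval 2.64 to 9.85) had a region, and the shares of single lists that follow also leave them out. Intervals are by the Wilson method at 95% and reflect counting error alone.

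Among cilia genes, which are the targets of DAF-19 as a class, 2 of 36 had a region (5.56%; interval 1.54 to 18.1). These were che-13, an intraflagellar transport gene, with signal 186 at −1688 bp, and nphp-4, nephrocystin-4 of the transition zone, with signal 128 at −1296 bp. At both, other genes were nearer to the summit: nlp-4 at 781 bp and the snoRNA F59C6.15 at 124 bp for che-13, and hmp-1 at 847 bp and the ncRNA R13H4.11 at 193 bp for nphp-4.

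Of synaptic genes other than unc-64, 2 of 34 had a region (5.88%; interval 1.63 to 19.1). They were nsf-1, the ATPase that takes SNARE complexes apart, with signal 198 at −410 bp, and ehs-1, an Eps15 endocytic gene, with signal 93.6 at −855 bp. Of Wnt genes other than cam-1, 2 of 28 had a region (7.14%; interval 1.98 to 22.6). These were vang-1, a Van Gogh planar polarity gene, with signal 114 at −325 bp, and hmp-2, a beta-catenin gene, with signal 200.3 at −1422 bp. The ncRNA F53B3.10 started 11 bp from the vang-1 summit, and K05C4.7 was nearer than hmp-2, at 242 bp.

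Of neuronal transcription factor genes other than daf-19, 0 of 29 had a region (interval 0 to 11.7). Of axon genes 2 of 28 did (7.14%; interval 1.98 to 22.6): unc-76, with signal 91.03 at −71 bp, and unc-115, an actin-binding gene, with signal 106 at −185 bp. The nearest list gene outside the limit was egl-21, a carboxypeptidase gene of neuropeptide processing, at −2074 bp, and next cat-1, a monoamine transporter gene, at 2732 bp. The farthest inside it was che-13 at −1688 bp.

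**Figure D4:**
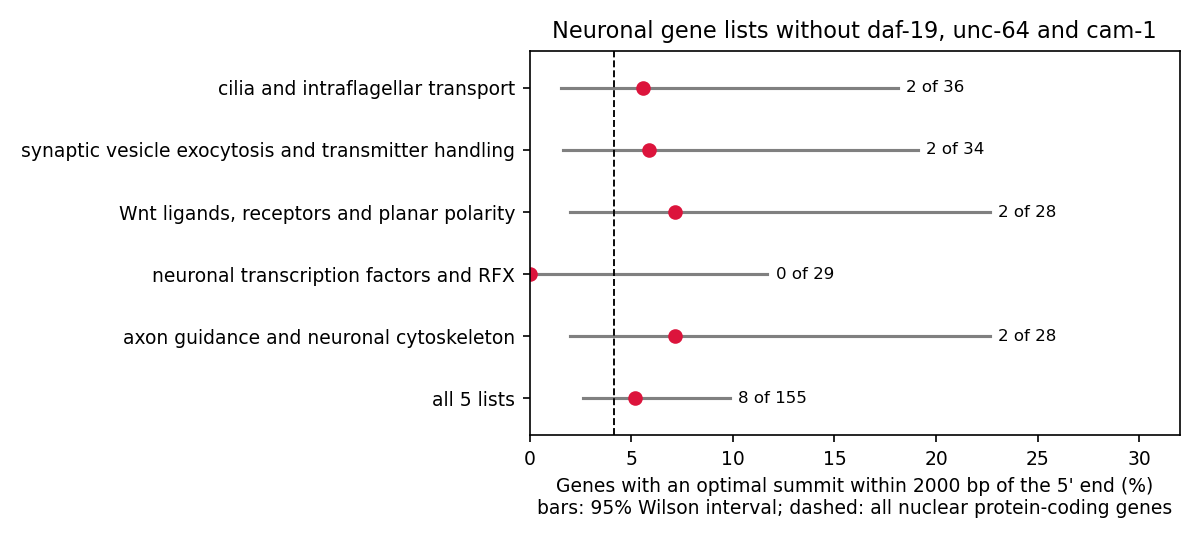
Share of each gene list, without daf-19, unc-64 and cam-1, with an optimal region within 2000 bp of the 5' end. Points are shares in percent, bars are 95% Wilson intervals and the dashed line is the share of all nuclear protein-coding genes, 4.13%, which every interval spans.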

How the data were processed

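FKH-6-GFP ChIP-seq regions came from 2 biological replicates in 1 group. The authors deposited a region list for each replicate, for both pooled, and the optimal list, made from the pooled list with an irreproducible discovery rate cut-off, per the deposited descriptions. The signal in column 7 was deposited by the authors without a stated scale, and served only for ranks and filters inside 1 list. Column 9 is the authors' −log10 q-value. The deposited offset in column 10 gave the summit. For the aligner and peak caller, names and versions were not given in the sources used here. Control libraries were not analysed here. The lists hold no counts, so depth is unknown.

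The members and gene lists were chosen with earlier results of these data known. Positions are in ce11 (WBcel235), with Ensembl release 115 genes; distances are positive into a gene and negative upstream. Regions matched where summits lay within 100 bp. Genes named are the 3 members, their protein-coding neighbours, non-coding genes within 500 bp or else nearest, list genes within 2000 bp, and genes at regions of next rank; wbp-11, egl-21, cat-1, the genes nearer to a list gene's summit and those reached by another transcript start were named after their values were seen. Shares have 95% Wilson intervals. Matching and motif search were tested on simulated data. Scripts ran in Python 3.11.15 with SciPy 1.17.1, NumPy 2.4.6 and, for plots, Matplotlib 3.10.9. The ce10 lists were used only for a match by signal. Alternatives tried were other distances, start definitions, match distances, filters and builds, and leaving out each replicate.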

Additional observations from a re-analysis of the deposited data

How the results depend on the processing

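Of 51 alternatives, 17 gave the same value, 23 changed it by at most 1.5 times for a count or 1 SD of the replicates for a distance, and 11 changed it by more. With full replicate lists in place of the strongest regions, 3 of 3 optimal regions were found in both replicates, against 1 of 3. Within 500 bp of the 5' end 5 list genes had a region (3.16%, against 2.09% of all genes), and within 5000 bp 20 did (12.7%, against 7.86%). Without the 3 genes these were 4 of 155 (2.58%) and 17 of 155 (10.97%). With each summit given only to its nearest protein-coding start, 8 list genes had a region within 2000 bp (5.06%, against 2.56% of all genes). Without the 3 genes that was 5 of 155 (3.23%). Without replicate 1 or without replicate 2, the summit distance ran from −1148 to −1105 bp at unc-64 and from 1393 to 1459 bp at cam-1. Leaving out a replicate also kept 2 of the 3 genes among the strongest: daf-19 and unc-64 without replicate 1, and daf-19 and cam-1 without replicate 2. In the widest window tried unc-64 had 9 pooled regions, against 4. The ce10 optimal list, added after the data were seen, holds 811 regions, against 767 in ce11. The 3 regions were found there by matching their signal. Their equal ranks, 188, 696 and 725, follow largely from that match and are no independent support. This alternative is among the 17 of the same value and could hardly have differed. No paired analysis was possible because there was only 1 group. With 2 replicates and no read counts, the lists do not give the error of a region's signal.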

Other observations

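The list genes gave more regions when the start of any annotated transcript was used in place of the gene's 5' end. Then 16 of 158 list genes (10.1%) had an optimal summit within 2000 bp, against 4.47% of all genes. The 16 include daf-19, unc-64 and cam-1, which were chosen for having such a region, and without them 13 of 155 (8.39%) did. The added genes were lin-17, a Frizzled Wnt receptor gene, with a summit 756 bp from a transcript start, lit-1, a Nemo-like kinase gene, at 1834 bp, unc-33, a CRMP gene of axon outgrowth, at 1457 bp, sax-7, an L1CAM adhesion gene, at −123 bp, and egl-44, a TEAD transcription factor gene, at −198 bp. All 5 summits were intronic, 3826 to 19239 bp into the gene. These genes came in only through a transcript start inside the gene, so a place within the gene follows largely from that rule. List genes had a mean of 2.34 distinct starts, against 1.49 over all genes, and the part of this in the count was not tested.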
